A study of Mus musculus with 96 samples.

Results

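Thrsp (thyroid hormone responsive, also called Spot 14) and its paralog Mid1ip1 (Mid1 interacting protein 1) were followed across 8 mouse tissues and 2 diets. All 3 probes that the platform's annotation assigns to either gene were taken, out of 46632 probes and 17711 named genes. Thrsp had 2 of these probes and Mid1ip1 had 1. Thrsp was chosen by its measured difference between the diets in earlier results of these data, lower in fat and higher in liver on the high-fat diet, and Mid1ip1 was taken as its paralog. The diet differences of both genes are therefore given as a description, with no test.

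Thrsp is a small nuclear and cytosolic protein of tissues that make fatty acids, and its gene is switched on by thyroid hormone, by insulin through SREBP-1c and by dietary carbohydrate through ChREBP. Mid1ip1, also called MIG12, binds acetyl-CoA carboxylase, the enzyme that makes malonyl-CoA for fatty acid synthesis, and promotes its assembly into active filaments. The Thrsp protein can pair with Mid1ip1. In fat and liver both genes are studied as partners of the lipogenic enzymes.

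The RNA came from DBA/2J mice, an inbred laboratory strain. For 6 weeks they ate a high fat diet or, as controls, stayed on standard breeding diet. The mice were 12 weeks old at dissection and had gone 2 hours without food. Each of the 16 groups, formed by 8 tissues and 2 diets, held 6 biological replicates, 1 array each: brown fat, 5 white fat depots (gonadal, mesenteric, perirenal, inguinal and subcutaneous), liver and quadriceps muscle. All mice were of 1 strain with no transgene named, and the labels give neither the sex nor the composition of the diets, nor whether an animal is the same across tissues. Signals are log2 intensities from Illumina Mouse-6 BeadChips, differences are high-fat minus standard diet, and ± gives the standard error of a difference between 6 and 6 arrays. The tissues are whole, so fewer cells of a type and less RNA per cell cannot be told apart.

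The 2 promoters are shown because the genes are paralogs whose signals moved differently. Each is the 250 bases before the gene's start, 5′ to 3′, from RefSeq (build GRCm38.p6), which lies at chr7:97417551-97417800 on the minus strand for Thrsp and at chrX:10717115-10717364 on the plus strand for Mid1ip1. Capitals mark the CCAAT boxes (CCAAT or ATTGG) in Thrsp and the GC boxes (GGGCGG or CCGCCC) in Mid1ip1.
Thrsp: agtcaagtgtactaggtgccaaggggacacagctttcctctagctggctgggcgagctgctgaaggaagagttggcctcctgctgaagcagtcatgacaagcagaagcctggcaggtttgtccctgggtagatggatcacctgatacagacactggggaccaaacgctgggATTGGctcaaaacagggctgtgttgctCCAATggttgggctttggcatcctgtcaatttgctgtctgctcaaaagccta
Mid1ip1: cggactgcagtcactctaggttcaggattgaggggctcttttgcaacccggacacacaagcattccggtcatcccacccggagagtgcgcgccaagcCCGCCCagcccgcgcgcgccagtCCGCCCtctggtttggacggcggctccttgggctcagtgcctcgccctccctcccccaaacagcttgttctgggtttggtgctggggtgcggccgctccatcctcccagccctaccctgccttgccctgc

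The Thrsp window held 2 CCAAT boxes, which begin 79 and 52 bases before the start, and 2 E boxes (CANNTG), which begin 247 and 113 bases before it. It held 0 GC boxes. The Mid1ip1 window held 0 CCAAT boxes, 0 E boxes and 2 GC boxes, which begin 153 and 130 bases before the start. Neither window held the nuclear receptor half-site (AGGTCA or TGACCT). Every motif was searched on both strands, and no printed matches of different motifs overlapped. Among 32851 promoter windows of the same length 33.8% held a CCAAT box, 66.2% an E box, 32.7% a GC box and 14% a half-site, so each motif is common. The G and C content was 53.6% for Thrsp and 66.8% for Mid1ip1. A match is a run of letters, and these data do not measure binding.

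The arrays differed in brightness, taken as the upper quartile of an array's intensities over its median. In the 6 fat tissues this ratio was 1.7 to 2.49 on the 36 standard-diet arrays, 1.96 to 2.68 on high-fat replicates 1 and 2, and 1.34 to 1.72 on high-fat replicates 3 to 6. In liver and muscle it was 1.27 to 1.39 on the standard diet and 1.25 to 1.37 on the high-fat diet. The labels name no array batch. Markers fitted the tissue labels in most respects: Adipoq, the adipocyte hormone adiponectin, had means of 14.87 to 15.68 in all fat tissues, Ucp1, the heat-producing uncoupling protein, 15.07 and 15.4 in brown fat, Apoa1, the main protein of high-density lipoprotein, 15.33 and 15.42 in liver, and Ckm, muscle creatine kinase, 15.27 and 15.23 in muscle. Ucp1 was also high in subcutaneous fat, at 14.63 and 14.79, so it set that depot little apart from brown fat. In inguinal fat it was at 12.64 and 14.86, and in perirenal fat at 13.02 and 14.18. The Alb probe, for albumin, was low in liver at 8.21 and 8.04. In gonadal fat standard-diet replicate 1 stood apart, where 6 skeletal muscle markers summed to 67426, while the remaining arrays of its group had 5965 to 11087. In mesenteric fat standard-diet replicate 1 stood apart, where 6 exocrine pancreas markers summed to 641, while the remaining 5 had 157601 to 293742. The high-fat arrays had 225847 to 318006, so pancreas transcripts were plentiful in this depot on both diets. Muscle and liver transcripts also varied widely between perirenal arrays, on both diets. Their muscle marker sums were 14795 to 204908 on the standard diet, as high as in muscle itself, and 18009 to 138609 on the high-fat diet, and their sums of 6 hepatocyte markers were 2411 to 35109 and 1180 to 32393. In inguinal fat the muscle sums were 4740 to 63471 and 3233 to 42147, and 1 gonadal standard-diet array, replicate 5, had a hepatocyte sum of 34761 against 1817 or less on the other 11. Thrsp and Mid1ip1 are given with and without such arrays in these 4 depots. Brown fat also had high muscle sums, 96503 to 145270 on the standard diet and 25328 to 145472 on the high-fat diet. In subcutaneous fat the pancreas sums were 662 to 777 and 673 to 14011. No selection of arrays by these sums was made in brown or subcutaneous fat, so their part in the values there was not tested.

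Thrsp was among the brightest signals of every fat tissue on the standard diet and was lower in each of the 5 white depots on the high-fat diet, by 1.78 to 2.91 log2 units. Liver went the other way. In perirenal fat the 6 standard-diet arrays had a lowest, median and highest Thrsp signal of 14.37, 14.97 and 15.37, and the 6 high-fat arrays 11.78, 11.98 and 12.19. The groups were far apart, with a difference of -2.91 ± 0.16, which is 7.53-fold. All high-fat arrays below all standard-diet arrays was also seen for 5.54% of the features tested in perirenal fat. Without the 4 arrays whose muscle marker sum was over 100000 the difference was -2.93 ± 0.18. It was -2.88 ± 0.21 without the 8 over 30000, which leaves 2 arrays on each diet, and -2.74 ± 0.19 without the 6 whose hepatocyte sum was over 20000. These selections were made after seeing the data.

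Subcutaneous fat showed nearly the same drop. Its Thrsp signals were 14.66, 14.9 and 15.28 (lowest, median, highest) on the standard diet and 11.5, 12.1 and 12.44 on the high-fat diet. The difference was -2.9 ± 0.14, or 7.47-fold, with no overlap, as for 4.1% of features tested there. The summed level of 5 brown adipocyte markers also lay apart in this depot, with 69764 to 145602 on the standard diet and 53861 to 64612 on the high-fat diet. Of the 5, 3 fell: Cidea by 1.5 ± 0.19, Cox8b by 1.1 ± 0.14 and Cox7a1 by 0.74 ± 0.22. Ucp1 at 0.16 ± 0.12 and Elovl3 at -0.39 ± 0.2 were not called. Lymphocyte markers fell there too: 4 of the 5 on the array (Cd3e, Cd3g, Cd79a and Cd79b) were called lower, by 0.64 to 0.86, with sums of 7193 to 19099 and 6165 to 9585. Of all features 11.1% were called lower in this depot. Skeletal muscle marker sums lay apart as well, with 1603 to 2666 on the standard diet and 2760 to 10415 on the high-fat diet. Of the 4 muscle markers tested there 1 was called higher, Acta1 by 1.53 ± 0.26 (limma adjusted p = 0.00151). Of all features 8.78% were called higher. The part of these shifts in the Thrsp difference was not tested.

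In gonadal fat the Thrsp signals were 14.29, 14.93 and 15.19 on the standard diet and 11.94, 12.79 and 13.33 on the high-fat diet, a difference of -2.09 ± 0.23 (4.26-fold). The groups did not overlap, as for 3.21% of features tested. Without the standard-diet array that held most muscle transcripts the difference was -2.04, and without the one that held liver transcripts -2.16. Muscle markers were also lower across the groups: 3 of the 5 tested fell, with differences of -3.86 ± 0.54 for Atp2a1, -2.26 ± 0.57 for Tnnt3 and -1.81 ± 0.52 for Ckm, each with no overlap (limma adjusted p from 0.000633 to 0.0376). Of all features 6.05% were called lower in gonadal fat. The part of muscle tissue in the Thrsp difference was not tested. High-fat replicates 1 and 2 had 13.13 and 13.33, and the dimmer replicates 3 to 6 spanned 11.94 to 13.16, so the bright high-fat arrays were among the highest 3.

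Mesenteric and inguinal fat had lower Thrsp signals on the standard diet and somewhat smaller differences. Mesenteric fat had 13.22, 13.94 and 14.64 on the standard diet and 11.35, 11.99 and 12.69 on the high-fat diet, a difference of -1.9 ± 0.24 (3.74-fold) with no overlap, as for 1.42% of features tested. Without the standard-diet array that lacked pancreatic transcripts, the highest for Thrsp at 14.64, it was -1.78. With that array included, the 6 pancreas markers had a median difference of 1.74, and 0 were called. The part of pancreas tissue in the mesenteric differences of Thrsp and of other genes was not tested. Inguinal fat had 13.12, 13.51 and 13.99 on the standard diet and 11.58, 11.77 and 11.94 on the high-fat diet, a difference of -1.78 ± 0.12 (3.42-fold) with no overlap, as for 4.63% of features tested. Without the 4 inguinal arrays with a muscle marker sum over 30000 it was -1.76 ± 0.16.

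Brown fat kept a high Thrsp signal on both diets. Its arrays ran from 15.25 through a median of 15.39 to 15.53 on the standard diet and from 14.96 through 15.07 to 15.34 on the high-fat diet. The difference was -0.27 ± 0.09 (1.21-fold), and the groups overlapped. On the standard diet 55 of the 46632 probes had a higher mean, and the unprocessed Thrsp intensities were 37093.9 to 62339 where the highest value in the whole file was 71625.1. On that diet the highest arrays of perirenal, gonadal and subcutaneous fat, at 52040.7, 49693 and 44734.3, lay inside this brown fat range. A change or a gap between tissues near the top of the scanner's range can be understated, which was not tested.

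Liver was the single tissue with more Thrsp signal on the high-fat diet. Its arrays had 12.31, 12.74 and 13.5 on the standard diet and 14.11, 14.44 and 14.61 on the high-fat diet. The difference was 1.61 ± 0.15 (3.04-fold) with no overlap, in the direction seen for 0.713% of features tested in liver. The sum of 6 hepatocyte markers was 117742 to 132940 on the standard diet and 117030 to 133905 on the high-fat diet, so it overlapped almost completely.

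Muscle had the lowest Thrsp signal and the widest spread. The standard-diet arrays had 9.15, 9.58 and 10.78 and the high-fat arrays 8.03, 8.8 and 9.6, a difference of -1.05 ± 0.26 (2.07-fold) with overlap. On the standard diet the 2 arrays with the highest Thrsp, replicates 3 and 4 at 10.78 and 10.76, also had the 2 highest sums of 7 adipocyte markers, 3596 and 3371, against 1890 to 3034 on the other 4. On the high-fat diet the order did not match: the array with the highest sum, replicate 5 at 6234, had the fifth highest Thrsp at 8.56, and the array with the lowest sum, replicate 2 at 2899, had the third highest at 8.95. Among its markers Lep, the hormone leptin, rose in muscle by 1.92 ± 0.19 (limma adjusted p = 0.000261), and Adipoq differed by 0.33 ± 0.22 (limma adjusted p = 0.738). The sum of 6 hepatocyte markers in muscle was 733 to 6016 on the standard diet and 759 to 823 on the high-fat diet. Of the brown adipocyte markers, Ucp1 had means of 10.83 and 11.05 in muscle, Cidea 9.66 and 9.26, and Elovl3 6.23 and 6.3. White or brown adipocytes or liver transcripts within muscle as a source of the Thrsp signal were not tested.

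**Figure D1:**
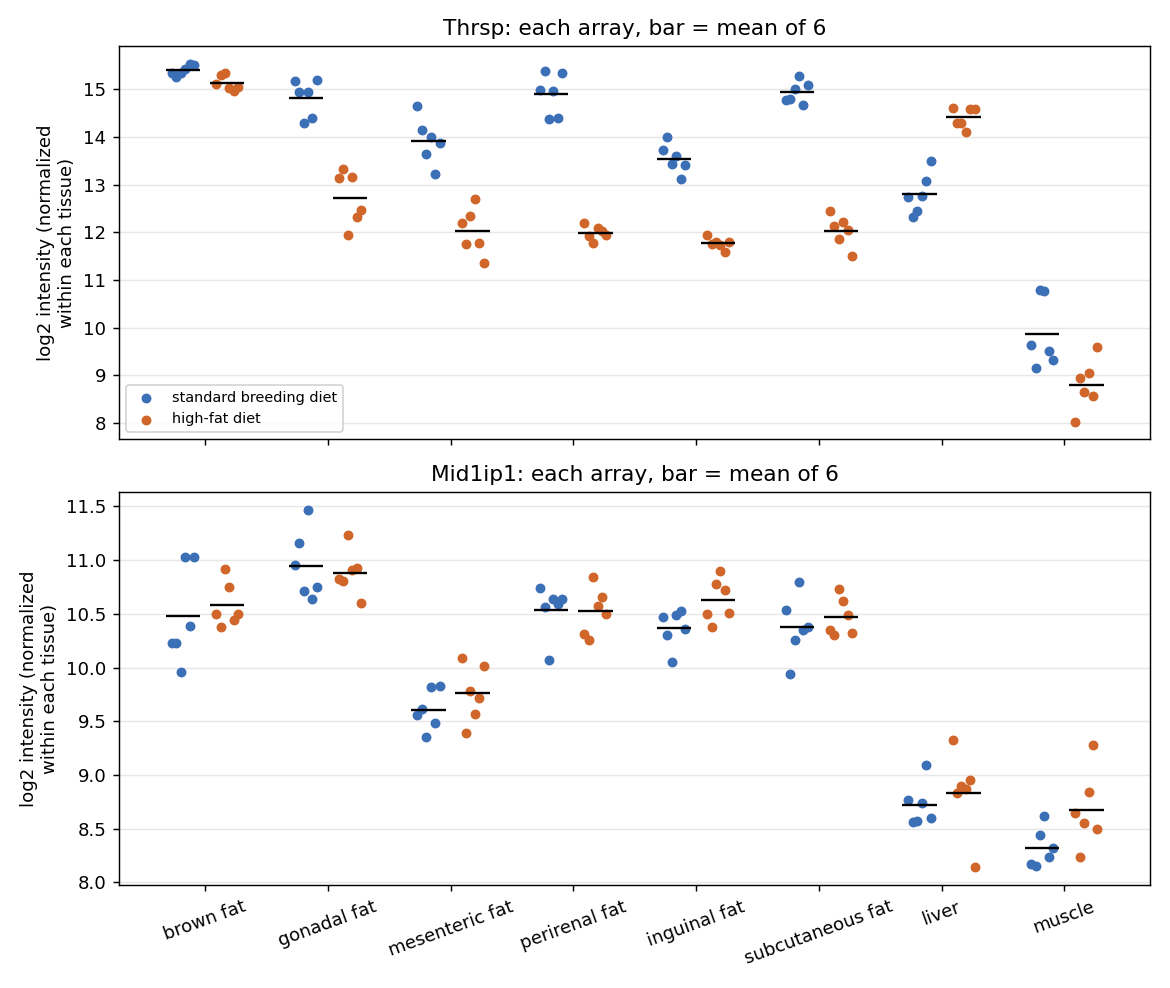
Each point is 1 array and each bar the mean of 6. The upper panel shows Thrsp and the lower Mid1ip1, with log2 intensity normalized within each tissue on the vertical axis and the 8 tissues on the horizontal axis. The Thrsp groups are apart in the 5 white depots and in liver, while the Mid1ip1 groups overlap in all 8 tissues.

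The brightness of the arrays moved with diet in fat, so the differences were also taken over the bright arrays alone, that is 6 standard-diet arrays against high-fat replicates 1 and 2. The Thrsp difference was then -2.84 ± 0.27 in perirenal fat, -2.65 ± 0.16 in subcutaneous fat and -1.94 ± 0.3 in mesenteric fat. It was -1.69 ± 0.18 in inguinal fat, -1.59 ± 0.24 in gonadal fat and -0.2 ± 0.11 in brown fat. The order of the depots was thus not quite the same as over all arrays, but each depot's difference kept its sign. Over the 96 deviations of arrays from their group mean, Pearson's r with array brightness was 0.19 for Thrsp and -0.24 for Mid1ip1. These points share the normalization of their tissue.

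Some macrophage markers rose in each white depot. Of the 5 markers on the array (Adgre1, Itgax, Mpeg1, Cd14 and Trem2) the number that rose was 5 in perirenal, 4 each in gonadal, inguinal and subcutaneous, and 1 in mesenteric fat, with 3 in brown fat and 0 in liver or muscle. Of all features tested, limma called 13.3% higher in perirenal, 6.12% in gonadal, 11% in inguinal, 8.78% in subcutaneous, 0.253% in mesenteric and 6.77% in brown fat, 0.598% in liver and 0.0935% in muscle. Their summed level in perirenal fat went from 4491 to 8449 on the standard diet to 16214 to 31990 on the high-fat diet. The adipocyte sum overlapped there, with 119372 to 153882 and 134051 to 156470. It was entirely higher on the high-fat diet in subcutaneous fat, with 119927 to 129352 and 141958 to 173658, and in brown fat, with 68600 to 76272 and 82832 to 93936. The median difference of the 7 adipocyte markers was 0.02 in subcutaneous and 0.06 in brown fat. In subcutaneous fat Lep rose by 0.91 ± 0.11 and Cidec by 0.47 ± 0.08, while Lipe fell by 0.58 ± 0.11. Adipoq was at 0.02 ± 0.1 there. In mesenteric fat the macrophage sums were 2549 to 4061 and 2924 to 4734. The part of macrophages in the Thrsp differences was not tested.

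Markers of mesothelium, the lining of the body cavity, fell in perirenal and gonadal fat. In perirenal fat 3 of 5 fell, Krt19 by 1.28 ± 0.23, Upk3b by 1.26 ± 0.2 and Msln by 0.48 ± 0.13 (limma adjusted p from 0.000562 to 0.0181), with sums of 3139 to 6361 and 2418 to 3488, where 13.3% of all features were called lower. In gonadal fat 2 of 5 fell, Upk3b by 0.59 ± 0.13 and Wt1 by 0.38 ± 0.08 (limma adjusted p = 0.0116 and 0.0105), with sums of 8754 to 13211 and 6905 to 9754, where 6.05% were called lower. The epithelial keratins Krt14 and Krt18 also fell in perirenal fat, by 0.95 ± 0.23 and 0.41 ± 0.13 (limma adjusted p = 0.011 and 0.0342). Their part in the Thrsp differences was not tested.

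Brown adipocyte markers moved unevenly in the white depots. Of 5 markers (Ucp1, Cidea, Elovl3, Cox8b and Cox7a1) 1 rose and 2 fell in gonadal and in perirenal fat, 3 rose and 0 fell in inguinal fat, and 1 rose and 0 fell in mesenteric fat. The shares of all features called higher and lower were 6.12% and 6.05% in gonadal, 13.3% and 13.3% in perirenal, 11% and 12.7% in inguinal, and 0.253% and 0.396% in mesenteric fat. The marker sums overlapped between the diets in these 4 depots, with 28235 to 71267 and 22076 to 61971 in perirenal fat, 12255 to 23425 and 9349 to 26225 in gonadal fat, 23546 to 56324 and 37129 to 70613 in inguinal fat, and 11707 to 17046 and 14543 to 26246 in mesenteric fat. Ucp1 rose by 2.35 ± 0.41 in gonadal, 2.22 ± 0.35 in inguinal, 2.09 ± 0.2 in mesenteric and 1.16 ± 0.27 in perirenal fat (limma adjusted p from 0.000583 to 0.00884), while Thrsp was lower in each. Their part in the Thrsp differences was not tested.

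Mid1ip1 did not follow Thrsp. Its groups overlapped in all 8 tissues, and its differences lay between -0.06 and 0.35. In perirenal fat the standard-diet arrays had 10.07, 10.61 and 10.74 and the high-fat arrays 10.26, 10.53 and 10.84, a difference of -0.02 ± 0.12, where Thrsp was 7.53-fold lower. Without the arrays rich in muscle or liver markers it was -0.12 (muscle sum over 100000), 0 (over 30000) and 0.15 (hepatocyte sum over 20000). In subcutaneous fat they had 9.94, 10.37 and 10.8 against 10.3, 10.42 and 10.73, a difference of 0.09 ± 0.12.

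Gonadal fat had Mid1ip1 signals of 10.64, 10.85 and 11.47 on the standard diet and 10.6, 10.87 and 11.23 on the high-fat diet, a difference of -0.06 ± 0.14 with or without the array that held most muscle transcripts, and -0.12 without the one that held liver transcripts. Mesenteric fat had 9.35, 9.59 and 9.83 against 9.39, 9.75 and 10.09, a difference of 0.15 ± 0.12, or 0.14 without the array that lacked pancreatic transcripts. Brown fat had 9.96, 10.31 and 11.03 against 10.38, 10.5 and 10.92, a difference of 0.1 ± 0.17. The high-fat range lay inside the standard-diet range in gonadal and brown fat, apart from 1 gonadal array at 10.6.

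Liver, where Thrsp was 3.04-fold higher, had Mid1ip1 signals of 8.56, 8.67 and 9.09 on the standard diet and 8.14, 8.88 and 9.33 on the high-fat diet, a difference of 0.11 ± 0.14. The larger Mid1ip1 differences were in inguinal fat, with 10.05, 10.41 and 10.53 against 10.38, 10.62 and 10.9 (0.27 ± 0.1, or 0.11 ± 0.1 without the 4 arrays rich in muscle markers), and in muscle, with 8.15, 8.28 and 8.62 against 8.24, 8.6 and 9.28 (0.35 ± 0.13). In inguinal fat 3 of the 6 high-fat arrays lay above every standard-diet array, as did 3 of the 6 in muscle.

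**Figure D2:**
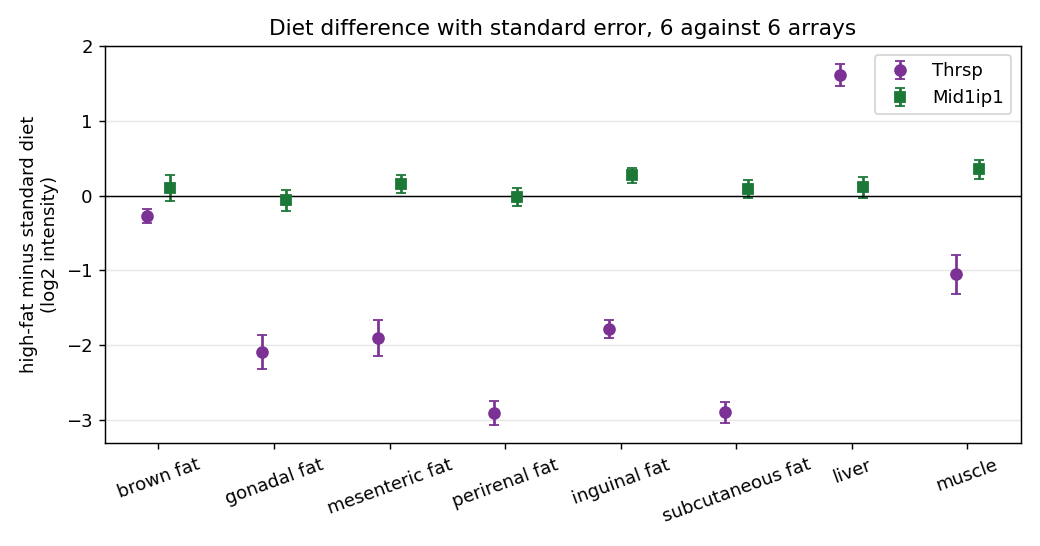
High-fat minus standard diet in log2 intensity, for Thrsp (circles) and Mid1ip1 (squares) in each of 8 tissues, with standard errors from 6 against 6 arrays. Thrsp spans -2.91 in perirenal fat to 1.61 in liver, and Mid1ip1 stays between -0.06 and 0.35.

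The sign of the small Mid1ip1 differences depends on the scaling. When arrays were scaled to a common median in place of quantile normalization, the median difference of all features tested in the fat tissues became -0.18 to -0.29, and Mid1ip1 became -0.34 in brown, -0.18 in inguinal, -0.3 in mesenteric and -0.24 in subcutaneous fat. Relative to the shifted median these were -0.11, 0.09, -0.01 and -0.03. Thrsp relative to that median was -0.15 in brown fat, -1.88 to -2.93 in the white depots, 1.58 in liver and -1.23 in muscle, so its direction was the same in every tissue.

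The remaining Thrsp probe gave little signal. Its group means ran from 6.37 to 7.23, between 32.8% and 63.6% of all probes had a lower mean on the standard diet, and its differences were -0.2 to 0.18. The annotation ties it to another transcript record of the gene than the bright probe. With values this close to the median of all probes it says little about that transcript, and all other Thrsp values here are from the bright probe.

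Across tissues, the 96 arrays were normalized together and all 28 pairs of tissues were compared within each diet and gene, with two-sided exact permutation tests of 6 against 6 arrays, adjusted by the Benjamini-Hochberg method over the pairs of both genes and both diets. The smallest p that 6 against 6 arrays allow is 0.00216, which became 0.00539 after adjustment. That adjustment includes the Thrsp pairs, liver against fat among them, and their small p lower the adjusted p of the Mid1ip1 pairs. An adjustment over the Mid1ip1 pairs alone was not made. Levels on this joint scale differ from those within a tissue, and they serve to order tissues for 1 gene. The permutation tests do not use replicate numbers, though same-numbered arrays of a diet may come from the same animal: their deviations correlated across tissues by -0.27 to 0.75, over 0.1 in 88 of 168 cases on the standard diet and 97 of 168 on the high-fat diet, and high-fat replicates 3 to 6 were dim in every fat tissue. With replicate number as a block, 0 pairs could pass after adjustment. Thrsp was chosen on these arrays for its opposite diet differences in liver and fat. Its levels in liver against fat are therefore a description with no test. Its other pairs give no independent support on either diet, since the arrays of both diets entered that choice.

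On the standard diet Thrsp was highest in brown fat, with a mean of 15.28 (SD 0.12, n = 6). Subcutaneous fat followed at 14.67 (SD 0.28), perirenal at 14.62 (SD 0.52), gonadal at 14.46 (SD 0.45) and mesenteric fat at 14.12 (SD 0.4). Liver was at 13.55 (SD 0.35), inguinal fat at 13 (SD 0.33) and muscle at 11.03 (SD 0.67). Of the 22 pairs that do not set liver against fat, 17 passed at an adjusted p under 0.05, on arrays that were used to choose Thrsp. Brown fat was above the 5 white depots (exact permutation adjusted p = 0.00539 to 0.0176), and muscle was below every other (adjusted p = 0.00539, exact permutation). The 5 pairs that did not pass were among subcutaneous, perirenal, gonadal and mesenteric fat, with differences of 0.04 to 0.5. The depots at their ends, mesenteric and subcutaneous fat, did differ, by 0.54 (exact permutation adjusted p = 0.0398). The liver mean was 0.58 under that of mesenteric fat and 0.55 over that of inguinal fat.

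On the high-fat diet the order of Thrsp was different. Brown fat was at 14.97 (SD 0.19, n = 6) and liver at 14.93 (SD 0.17), which differ by less than their spread, and both means were at least 2.65 above that of every white depot. Mesenteric fat was at 12.28 (SD 0.52), gonadal at 12.1 (SD 0.6), subcutaneous at 11.51 (SD 0.34), perirenal at 11.4 (SD 0.14), inguinal fat at 11.1 (SD 0.12) and muscle at 10.03 (SD 0.52). Neighbouring pairs that did not pass were mesenteric with gonadal, gonadal with subcutaneous, and subcutaneous with perirenal fat, and 19 of the 22 pairs without liver against fat passed. Inguinal fat was below perirenal fat by 0.3 (exact permutation adjusted p = 0.00989), again on arrays that were used to choose Thrsp.

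Mid1ip1 spanned a much narrower range of tissue levels. On the standard diet it was at 10.47 (SD 0.43, n = 6) in brown fat, 10.26 (SD 0.32) in gonadal fat, 9.99 (SD 0.2) in liver, 9.94 (SD 0.23) in perirenal and 9.79 (SD 0.28) in subcutaneous fat. Inguinal fat was at 9.7 (SD 0.17), mesenteric fat at 9.62 (SD 0.2) and muscle at 9.55 (SD 0.19). Here 15 of 28 pairs passed, and no pair of neighbours in this order did. Brown fat was above all tissues but gonadal fat (difference 0.21, exact permutation adjusted p = 0.436). Nearest the threshold were brown fat over liver, by 0.49, and perirenal over mesenteric fat, by 0.32 (exact permutation adjusted p = 0.0444 for each). These pass only in an adjustment that includes the Thrsp pairs.

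On the high-fat diet 9 of 28 Mid1ip1 pairs passed, and 7 of them set brown fat, at 10.57 (SD 0.2, n = 6), above each other tissue by 0.38 to 0.79 (exact permutation adjusted p = 0.00539 to 0.0209). Gonadal fat was at 10.2 (SD 0.21), liver at 10.09 (SD 0.39), inguinal at 9.96 (SD 0.19), perirenal at 9.92 (SD 0.21), muscle at 9.91 (SD 0.35), subcutaneous at 9.87 (SD 0.18) and mesenteric fat at 9.78 (SD 0.28). Gonadal fat was above mesenteric fat by 0.42 and above subcutaneous fat by 0.32 (adjusted p = 0.0336 for each, exact permutation). The brown fat mean thus led for both genes on both diets, within the spread of liver for Thrsp on the high-fat diet and of gonadal fat for Mid1ip1 on the standard diet. The Mid1ip1 counts depend on single replicate numbers: without replicate 1 the standard-diet count was 9, and the high-fat count was 5 without replicate 2 and 4 without replicate 4.

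**Figure D3:**
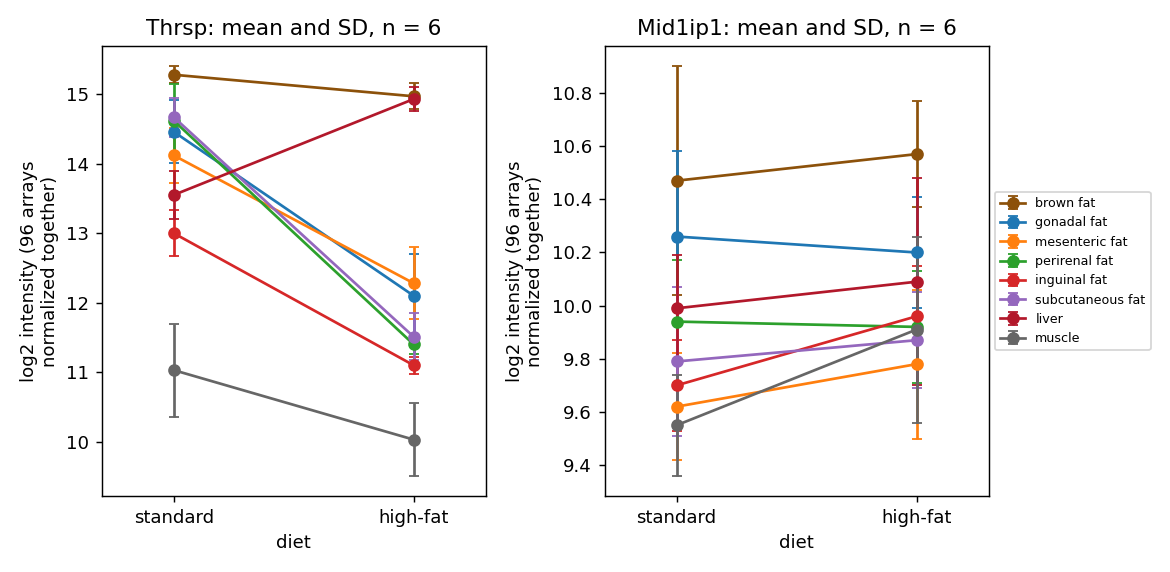
Mean and SD of 6 arrays for each tissue on both diets, Thrsp on the left and Mid1ip1 on the right, in log2 intensity of 96 arrays normalized together. Lines join the diets of a tissue. The Thrsp lines of the white depots drop while liver climbs from 13.55 to 14.93, and the Mid1ip1 means stay between 9.55 and 10.57.

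The enzymes that make fatty acids are the setting in which Thrsp acts. A list of 15 lipogenic enzymes was set beside it: 13 were on the array and 12 were tested in each tissue by limma, with p-values adjusted over all features of the tissue and calls made at an adjusted p under 0.05. In subcutaneous fat 7 fell and 1 rose, with a median difference of -0.64, where 11.1% of all features tested were called lower, 8.78% higher and the median of all was -0.02. Elovl6, which elongates palmitate, fell by 2.69 ± 0.18 (6.46-fold, limma adjusted p = 4.64e-07), close in size to Thrsp. The differences were -1.97 ± 0.14 for Acacb, the acetyl-CoA carboxylase at mitochondria, -1.56 ± 0.11 for Acly, which makes cytosolic acetyl-CoA from citrate, and -1.31 ± 0.13 for Acaca, the cytosolic acetyl-CoA carboxylase (limma adjusted p from 6.01e-07 to 1.34e-05). The gene that rose was Scd1, a stearoyl-CoA desaturase, by 0.35 ± 0.1 (limma adjusted p = 0.0281), named after its values were seen.

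In perirenal fat 6 lipogenic enzymes fell and 0 rose (0 also at an unadjusted p under 0.05), with a median of -0.56, where limma called 13.3% of features lower and 13.3% higher. There Elovl6 was at -2.38 ± 0.22, Acaca at -1.61 ± 0.13, Acacb at -1.64 ± 0.18 and Acly at -1.36 ± 0.11 (limma adjusted p from 3.25e-06 to 3.28e-05). In mesenteric fat 6 fell and 0 rose (0 at an unadjusted p under 0.05 in limma), with a median of -0.73, where 0.396% of features were called lower and 0.253% higher. The calls included Elovl6 at -2.19 ± 0.21, Acaca at -1.45 ± 0.15, Acly at -1.32 ± 0.13 and Acacb at -1.26 ± 0.14 (limma adjusted p from 0.000583 to 0.00199). These mesenteric calls depend on the arrays and the scaling: over the bright arrays alone, with a term for high-fat replicates 3 to 6, or under median scaling, 0 were called.

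In gonadal fat 5 fell and 0 rose (1 at an unadjusted p under 0.05 in limma), with a median of -0.29, where 6.05% of features were called lower and 6.12% higher. Elovl6 was at -1.45 ± 0.17, Acacb at -1.16 ± 0.16, Acaca at -1.13 ± 0.12 and Acly at -1.08 ± 0.13 (limma adjusted p from 9.58e-05 to 0.00063). Over the bright arrays alone 2 were called.

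Inguinal and brown fat were more mixed. In inguinal fat 5 fell and 3 rose, with a median of -0.08, where 12.7% of features were called lower and 11% higher. Elovl6 was at -0.92 ± 0.22, Acacb at -0.88 ± 0.16, Acaca at -0.64 ± 0.14 and Acly at -0.58 ± 0.11 (limma adjusted p from 0.00178 to 0.00834), while Slc25a1, the mitochondrial citrate carrier, rose by 0.87 ± 0.12 (limma adjusted p = 0.000289). The other genes that rose, Acss2 and Scd2, are named after their values were seen. The count of those that fell was 1 over the bright arrays alone, 3 with a term for high-fat replicates 3 to 6, 1 under median scaling and 2 without the 4 arrays rich in muscle markers. In brown fat 6 fell and 1 rose, with a median of -0.37, where 8.27% of features were called lower and 6.77% higher. Slc25a1 fell there by 1.14 ± 0.11, Acss2, which makes acetyl-CoA from acetate, by 1.13 ± 0.11, Scd2 by 0.92 ± 0.13 and Elovl6 by 0.57 ± 0.1 (limma adjusted p from 1.35e-05 to 0.00181). Scd1 rose by 0.36 ± 0.11, named after its values were seen (limma adjusted p = 0.0471). Acaca at 0.03 ± 0.11 and Acly at -0.19 ± 0.08 were not called in brown fat (limma adjusted p = 0.89 and 0.0889). The brown fat count of enzymes that fell was 2 over the bright arrays alone and 3 under median scaling.

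In liver 0 lipogenic enzymes fell (0 also at an unadjusted p under 0.05 in limma) and 4 rose, with a median of 0.4, where 0.527% of features were called lower, 0.598% higher and the median of all was 0. Fads2, the delta-6 fatty acid desaturase, rose by 1.42 ± 0.16 (limma adjusted p = 0.000275), Fads1, the delta-5 desaturase, by 0.6 ± 0.1, Elovl5, which elongates polyunsaturated fatty acids, by 0.55 ± 0.1 and Acacb by 0.74 ± 0.14 (limma adjusted p from 0.00537 to 0.0162). Elovl6 at 0.27 ± 0.15, Acaca at 0.13 ± 0.1 and Acly at 0.43 ± 0.12 were not called (limma adjusted p from 0.142 to 0.782). The genes called in liver were thus 2 desaturases and an elongase of polyunsaturated fatty acids, and Acacb. Under median scaling 1 was called higher. In muscle limma called 0 lower and 0 higher, with 5 lower at an unadjusted p under 0.05 and a median of -0.25, where 0.099% of features were called lower and 0.0935% higher.

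Fasn, the fatty acid synthase, was called in 0 of the 8 tissues. Its differences were -0.44 ± 0.2 in perirenal, -0.58 ± 0.22 in mesenteric, -0.19 ± 0.2 in subcutaneous, -0.04 ± 0.17 in inguinal and -0.01 ± 0.16 in gonadal fat, 0.19 ± 0.17 in brown fat, 0.09 ± 0.17 in liver and -1 ± 0.29 in muscle (limma adjusted p from 0.134 to 0.975). With 1 probe kept per gene, these differences are those of that probe.

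**Figure D4:**
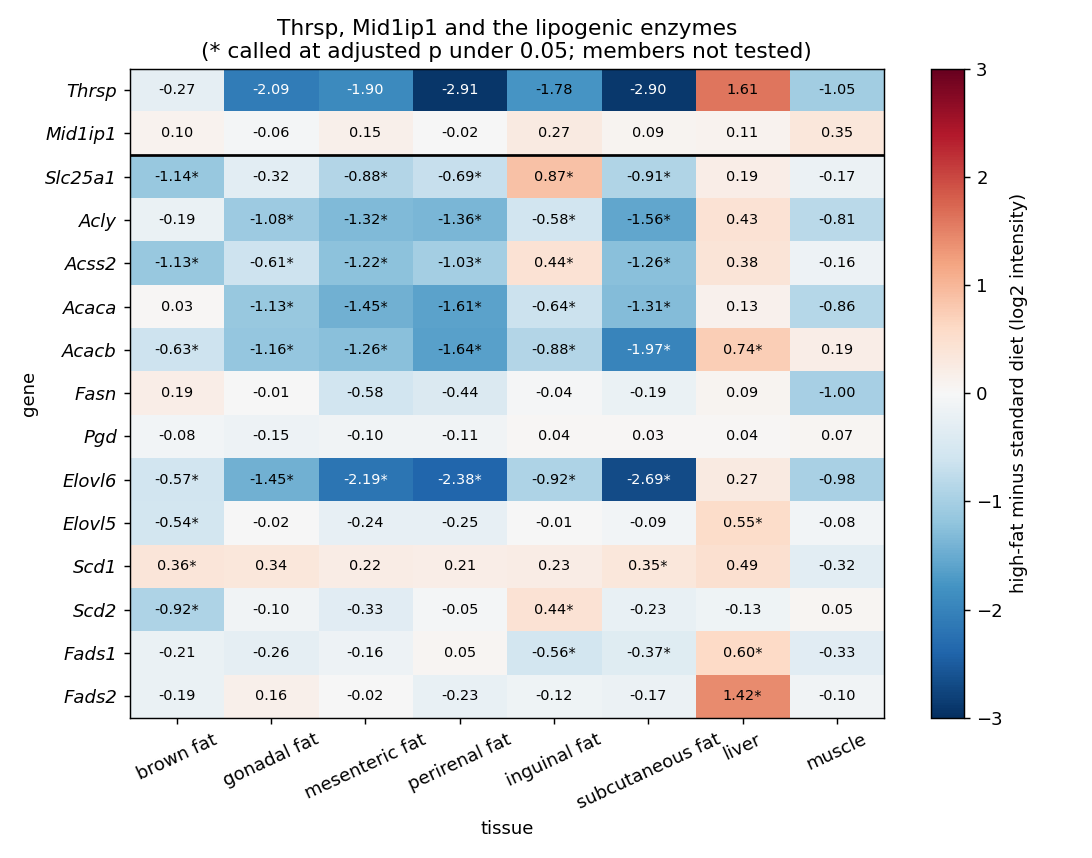
High-fat minus standard diet in log2 intensity for Thrsp, Mid1ip1 and the 13 lipogenic enzymes on the array (rows) in 8 tissues (columns), blue lower and red higher on the high-fat diet. A star marks a limma adjusted p under 0.05, Thrsp and Mid1ip1 were not tested, and Pgd lay below the intensity filter. Elovl6, Acaca, Acacb and Acly are blue with a star in all 5 white depots, and Fads2 is the deepest red among the enzymes in liver.

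Among 12 triglyceride synthesis genes, 11 on the array and 8 to 10 tested, the calls lower and higher were 3 and 1 in brown, 2 and 0 in gonadal, 2 and 3 in inguinal, 1 and 0 in mesenteric, 4 and 1 in perirenal, 1 and 0 in subcutaneous fat, 0 and 1 in liver and 0 and 0 in muscle (0 and 2 there at an unadjusted p under 0.05 in limma). The medians were -0.25 to 0.17. Mogat1, a monoacylglycerol acyltransferase, fell by 1.25 ± 0.12 in perirenal, 1.21 ± 0.12 in gonadal, 0.62 ± 0.1 in brown and 0.56 ± 0.11 in inguinal fat (limma adjusted p from 7.32e-06 to 0.00197). Agpat2, which makes phosphatidic acid, fell by 0.58 ± 0.14 in subcutaneous, 0.92 ± 0.17 in mesenteric, 0.51 ± 0.14 in perirenal and 0.6 ± 0.17 in brown fat, and rose by 0.46 ± 0.12 in inguinal fat (limma adjusted p from 0.0111 to 0.0353). In liver Dgat2, which makes triglyceride from diacylglycerol, rose by 0.36 ± 0.08 (limma adjusted p = 0.0487). The highest counts, 4 of 10 lower in perirenal fat and 3 of 10 in brown fat, stand beside 13.3% and 8.27% of all features called lower, and the 3 of 10 higher in inguinal fat beside 11% called higher. In the other tissues the shares of all features were 6.05% lower in gonadal, 12.7% in inguinal, 0.396% in mesenteric and 11.1% in subcutaneous fat, and 0.598% higher in liver. The shares called higher in brown and perirenal fat, with 1 higher call each, were 6.77% and 13.3%.

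Of 21 regulators of lipogenic transcription 18 were on the array and 12 to 15 were tested. The calls lower and higher were 2 and 0 in brown, 1 and 0 in gonadal, 0 and 1 in inguinal, 0 and 0 in mesenteric (4 and 1 at an unadjusted p under 0.05 in limma), 1 and 3 in perirenal and 2 and 0 in subcutaneous fat, 1 and 0 in liver and 0 and 0 in muscle (0 and 1 unadjusted), with medians of -0.08 to 0.06. These are 2 of 14 against 8.27% of all features called lower in brown fat, 2 of 15 against 11.1% in subcutaneous, 1 of 15 against 6.05% in gonadal and 13.3% in perirenal fat and 0.527% in liver, and for higher calls 3 of 15 against 13.3% in perirenal and 1 of 15 against 11% in inguinal fat, so the fat counts are near the shares of all features. Mlxipl, which encodes ChREBP, fell by 0.67 ± 0.14 in subcutaneous, 0.45 ± 0.13 in perirenal, 0.44 ± 0.1 in gonadal and 0.42 ± 0.11 in brown fat (limma adjusted p from 0.00436 to 0.0229). It was not called in mesenteric fat at -0.5 ± 0.14, in inguinal fat at -0.15 ± 0.09, in liver at -0.2 ± 0.13 or in muscle at -0.1 ± 0.09 (limma adjusted p from 0.128 to 0.788). Srebf1, which encodes SREBP-1, lay below the intensity filter in every tissue, so it was not tested.

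Insig1, which holds SREBP precursors in the endoplasmic reticulum, fell by 0.95 ± 0.11 in brown fat and rose by 1.06 ± 0.1 in inguinal fat (limma adjusted p = 0.000108 and 7.45e-06). Insig2, its relative, fell in liver by 0.72 ± 0.16 (limma adjusted p = 0.0445). Nfya, a subunit of the factor that binds CCAAT boxes, rose in perirenal fat by 0.35 ± 0.1 (limma adjusted p = 0.0188) and was not called in the other 7 tissues (limma adjusted p from 0.132 to 0.989). Sp1, which binds GC boxes, rose in perirenal fat by 0.28 ± 0.1 (limma adjusted p = 0.0481) and was not called in the other 7 (limma adjusted p from 0.137 to 0.9). The lower Thrsp signal was therefore accompanied by a lower Mlxipl signal in 3 of the 5 white depots at this threshold.

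Of 14 genes of thyroid hormone supply and response 11 were on the array and 7 to 9 were tested. The calls lower and higher were 0 and 1 in brown, 1 and 1 in gonadal, 1 and 1 in inguinal, 0 and 0 in mesenteric (1 and 1 at an unadjusted p under 0.05 in limma), 2 and 1 in perirenal and 1 and 1 in subcutaneous fat, 0 and 1 in liver and 0 and 0 in muscle (0 and 0 unadjusted), with medians of -0.17 to 0.16. For lower calls these are 1 of 8 against 6.05% of all features in gonadal and 12.7% in inguinal, 2 of 8 against 13.3% in perirenal and 1 of 7 against 11.1% in subcutaneous fat. For higher calls they are 1 of 9 against 6.77% in brown, 1 of 8 against 6.12% in gonadal, 11% in inguinal and 13.3% in perirenal, 1 of 7 against 8.78% in subcutaneous fat and 1 of 9 against 0.598% in liver. The fat counts are thus close to the shares of all features. Gpd2, the mitochondrial glycerol phosphate dehydrogenase and a classical thyroid hormone target in the rat, fell by 1.52 ± 0.13 in subcutaneous, 1.31 ± 0.19 in perirenal and 0.85 ± 0.18 in gonadal fat (limma adjusted p from 4.38e-06 to 0.00844). Hr, a corepressor of the thyroid hormone receptor, rose by 1.01 ± 0.12 in subcutaneous, 0.62 ± 0.11 in brown, 0.46 ± 0.12 in gonadal and 0.43 ± 0.13 in inguinal fat (limma adjusted p from 6.33e-05 to 0.0342). Gpd2 thus moved in the direction of Thrsp in these depots, and Hr in the other.

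Thra, the alpha receptor for thyroid hormone, fell by 0.43 ± 0.13 in perirenal and by 0.43 ± 0.12 in inguinal fat (limma adjusted p = 0.0282 and 0.0161), and Dio3, which inactivates the hormone, rose by 0.83 ± 0.14 in perirenal fat (limma adjusted p = 0.000991). In liver Dio1, the deiodinase that is itself raised by thyroid hormone, rose by 0.54 ± 0.09 (limma adjusted p = 0.0066), the same direction as Thrsp there. No other gene of this list was called in liver. Klf9 was at -0.24 ± 0.09, Thra at -0.13 ± 0.08, Gpd2 at -0.09 ± 0.09 and Hr at 0 ± 0.08 (limma adjusted p from 0.347 to 0.995). Thrb, the beta receptor, lay below the intensity filter in all 8 tissues.

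Of 11 insulin and glucose genes 9 were on the array and 7 or 8 were tested. The calls lower and higher were 2 and 0 in brown, 3 and 0 in gonadal, 4 and 1 in inguinal, 1 and 0 in mesenteric, 4 and 0 in perirenal and 3 and 0 in subcutaneous fat, 0 and 1 in liver and 0 and 0 in muscle (0 and 0 at an unadjusted p under 0.05 in limma). The medians were -0.45 to -0.05 in fat, 0.01 in liver and -0.09 in muscle. The lower calls are 4 of 7 against 12.7% of all features in inguinal and 13.3% in perirenal, 3 of 7 against 11.1% in subcutaneous, 3 of 8 against 6.05% in gonadal, 2 of 8 against 8.27% in brown and 1 of 8 against 0.396% in mesenteric fat, and the higher calls 1 of 7 against 11% in inguinal fat and 0.598% in liver. Irs1, which carries the insulin receptor's signal, fell in all 6 fat tissues, by 1.4 ± 0.15 in perirenal, 1.27 ± 0.17 in inguinal, 0.98 ± 0.15 in gonadal, 0.92 ± 0.15 in subcutaneous, 0.78 ± 0.14 in brown and 0.6 ± 0.1 in mesenteric fat (limma adjusted p from 3.37e-05 to 0.0161). Slc2a4, the insulin-regulated glucose transporter, fell by 1.37 ± 0.13 in perirenal, 0.81 ± 0.11 in subcutaneous, 0.74 ± 0.11 in gonadal, 0.68 ± 0.11 in brown and 0.45 ± 0.08 in inguinal fat (limma adjusted p from 7.89e-06 to 0.00153), and was at -0.38 ± 0.18 in mesenteric fat (limma adjusted p = 0.299). In liver Pklr, the pyruvate kinase gene that ChREBP induces, rose by 0.76 ± 0.11 (limma adjusted p = 0.00203).

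Of the proteins for which Mid1ip1 is named, Mid1 is a microtubule-bound ubiquitin ligase and Mid2 its paralog. Mid2 was tested in all 8 tissues and called in 0, with differences of -0.23 to 0.16 (limma adjusted p from 0.213 to 0.985). Mid1 lay below the intensity filter in the 6 fat tissues, and in liver and muscle its differences of 0.02 ± 0.07 and 0.09 ± 0.08 were not called (limma adjusted p = 0.967 and 0.779).

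To see which genes had patterns most like theirs, Pearson's r was taken over the 16 means of tissue and diet for 11912 genes, as a description, since the points share tissues and normalization and the 2 genes were picked for part of the pattern. Elovl6 was closest to Thrsp, with r = 0.9, followed by Rbck1, a subunit of a ubiquitin ligase (0.89), Acss2 (0.87), Emc10, a membrane protein complex subunit (0.87), and Acly (0.86). Pcbd2 and Mpzl2 had 0.86, and Tmem129 had 0.85. Thrsp and Mid1ip1 had r = 0.47 with each other, which placed Mid1ip1 at rank 1078 of 11912, and Fasn had 0.49 with Thrsp. Thus 3 of the 8 genes nearest to Thrsp were on the lipogenic list, which was itself chosen with these results known.

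Mid1ip1 was closest to other genes: Pcca, a subunit of propionyl-CoA carboxylase, Uros, an enzyme of haem synthesis, and Gpr137 each had r = 0.86, Slc22a5, the carnitine transporter, had 0.85, and Plpbp, Bri3, Kifc3 and Mtus1 had 0.84.

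Within groups, r was taken over the 96 deviations of arrays from their group mean, which leaves out the tissue and diet differences. Agpat2 was closest to Thrsp (r = 0.6), then Elovl6 and Tkt, the transketolase of the pentose phosphate pathway (0.57 each), Dhrs7 and Apoc1 (0.54 each), Mrap, an accessory protein of melanocortin receptors (0.52), and Cidea and Acly (0.51 each). Thrsp and Mid1ip1 had r = 0.12. Mid1ip1 was closest to Mtrex, an RNA helicase (0.53), Fam241a (0.52), Pcmtd1 and Pnpla3, a lipid droplet protein (0.48 each), C2cd2l (0.47), and Osbpl2, Slc25a39 and Rhob (0.46 each), and had 0.36 with Fasn. So Elovl6 and Acly stood near Thrsp by both measures, and the paralog by neither. These points share array brightness and, in part, possibly animals. Arrays of a group also differed in their muscle, liver or pancreas transcripts, and the part of that mixture in r was not tested.

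**Figure D5:**
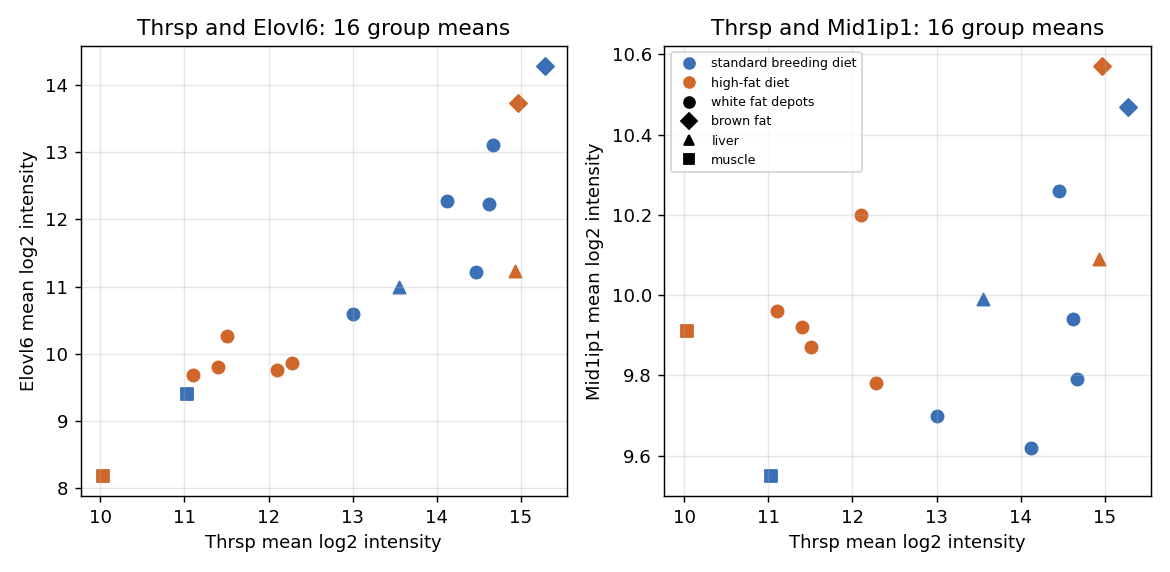
Each point is the mean of 6 arrays of 1 tissue and diet, in log2 intensity of 96 arrays normalized together, with Thrsp on the horizontal axis and Elovl6 (left) or Mid1ip1 (right) on the vertical axis. Colour gives the diet and shape the kind of tissue. The 16 points rise together for Elovl6 (r = 0.9) and scatter for Mid1ip1 (r = 0.47).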

How the data were processed

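The authors deposited non-normalized signal intensity for 96 arrays and, in a separate table, log2 values for the same arrays. By comparison of the tables, the deposited log2 values equal a quantile normalization of log2 intensity over all arrays (largest deviation 0.00191, median 7.391 in each array). The scanner software and background handling are not given in the sources used here, and no detection p-values came with these values. For each tissue its 12 arrays were background-corrected with normexp (offset 50), log2-transformed and quantile normalized in limma 3.58.1 (R 4.3.3). The 96 arrays were treated likewise together for tissue levels.

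Gene symbols were read from the probe annotation of the platform and brought up to date by gene number with RefSeq (GRCm38.p6). Of 46632 probes 29976 had 1 symbol, 10 several and 16646 none. The probe with the highest mean was kept per gene, unnamed probes stayed in, and features with a tissue mean above the median of all probes were tested. Diets were compared per tissue with limma, two-sided, 6 against 6 arrays, Benjamini-Hochberg over all features tested. The fit was tested on simulated data. No array was a copy of another (highest correlation 0.99554). The number of arrays limits the precision.

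The members and gene lists were chosen with earlier results of these data known. Named genes were the members, in each tissue the called genes with the 4 smallest p of a list, 7 fixed genes (Fasn, Acaca, Acly, Elovl6, Srebf1, Mlxipl and Thrb) and the 8 genes most like each member. Not all are printed. Marker genes and the exceptions stated in the text were chosen apart from this rule. Same-numbered arrays of the diets deviated together with correlations from -0.4 to 0.6, and those of different tissues on a diet with correlations from -0.27 to 0.75. In neither case was every pair over 0.1, so replicate numbers were not used to pair samples, though part of the deviations may be shared. P-values measure the spread between the replicates. Alternative settings were the deposited log2 values, no background correction, median scaling, 1 joint fit, brightness as a covariate, bright arrays alone, a term for the dim arrays, the replicate number as a block, array weights, no filter, all probes, each array left out in turn and, added after seeing the data, arrays rich in muscle or liver markers left out.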

Additional observations from a re-analysis of the deposited data

Results flagged for a closer look

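Thrsp differed between tissues in the direction of the diet difference: it was 1.61 higher in liver on the high-fat diet, with every high-fat array above every standard-diet array, and lower in the 5 white fat depots, with every high-fat array below every standard-diet array. Whether the diet differences of liver and fat differ was not tested, since Thrsp was chosen for this contrast.

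One array stood apart from its group. In perirenal fat on the standard diet, the lowest Mid1ip1 signal was 10.07, and the gap to the next of the 6 arrays exceeded Dixon's critical value of 0.625 of the group's range. Of 32 groups checked for Thrsp and Mid1ip1, this was the 1 that did so. Chance flags about 1 in 20 groups. Leaving out any single array moved the Mid1ip1 difference in perirenal fat between -0.11 and 0.03.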

How the results depend on the processing

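The Thrsp difference kept its direction in all 9 other settings in each fat tissue and all 7 in liver and muscle that used the bright probe. Not all of these could differ. The replicate block cannot change a difference here, and the term for high-fat replicates 3 to 6 gives that of the bright arrays alone. The Thrsp difference was -1.59 in gonadal fat over the bright arrays alone and with that term, and -2.16 in inguinal fat under median scaling. The other, dim Thrsp probe gave 0.18 in gonadal and 0 in mesenteric fat, -0.08 in inguinal, -0.04 in perirenal and -0.2 in subcutaneous fat, 0.13 in liver and -0.02 in muscle, and 10 (standard diet) and 12 (high-fat diet) tissue pairs passing. The causes were not tested. Under median scaling Mid1ip1 was -0.34 in brown, -0.5 in gonadal, -0.18 in inguinal, -0.3 in mesenteric, -0.27 in perirenal and -0.24 in subcutaneous fat. It was -0.26 in perirenal fat over the bright arrays alone and with the term. The lipogenic enzymes called lower numbered 3 in brown, 1 in inguinal, 0 in mesenteric fat and 3 in muscle under median scaling. Over the bright arrays alone, with fewer samples, they numbered 2 in brown, 2 in gonadal, 1 in inguinal and 0 in mesenteric fat. With the term they numbered 3 in inguinal and 0 in mesenteric fat, and with all 96 arrays in 1 fit 4 in muscle. Without the inguinal arrays with a muscle marker sum over 30000, with fewer samples, 2 were called lower. In liver 1 was called higher under median scaling, a count whose alternatives were chosen after seeing the data. Leaving out 1 replicate number gave 9 to 14 Mid1ip1 pairs on the standard diet (15 with all), 4 to 9 on the high-fat diet (9 with all), and 18 to 21 and 21 to 23 for Thrsp over all 28 pairs (23 and 24 with all). Leaving out 1 array gave Thrsp differences of -2.23 to -1.92 in gonadal, -3.02 to -2.82 in perirenal, -3.01 to -2.77 in subcutaneous, -2.07 to -1.75 in mesenteric and -1.87 to -1.69 in inguinal fat, and 1.51 to 1.74 in liver. With the replicate block, 0 tissue pairs passed for either gene on either diet, because the smallest p of the paired sign-flip test, 0.03125, is 0.0547 or more after adjustment. The pairs at that smallest p were 19 and 23 for Thrsp and 15 and 7 for Mid1ip1. The replicate block changed no Thrsp difference, and with 1 array per replicate number and diet in each tissue it could not. Signal over background limits the dim Thrsp probe, and Thrsp in brown fat lay near the top of the intensity range. The highest standard-diet arrays of perirenal, gonadal and subcutaneous fat overlapped the brown fat intensities.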

Other observations

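The pattern of Thrsp, lower in fat and higher in liver, was looked for over all 17711 named genes, after Thrsp's own values had been seen. In 44 genes every high-fat array lay below every standard-diet array in at least 5 of the 6 fat tissues. Of these 44, 2 also had every high-fat array above every standard-diet array in liver: Thrsp and Dhrs7, a short-chain dehydrogenase of the endoplasmic reticulum. Dhrs7 differed by -0.65 ± 0.11 in perirenal, -0.53 ± 0.11 in mesenteric, -0.47 ± 0.08 in gonadal, -0.45 ± 0.1 in subcutaneous and -0.44 ± 0.09 in brown fat (n = 6 arrays per diet). In inguinal fat it was at -0.03 ± 0.06, in muscle at 0.01 ± 0.09 and in liver at 0.41 ± 0.09. Thrsp overlapped in brown fat and Dhrs7 in inguinal fat, and the Dhrs7 differences were smaller than those of Thrsp in the other white depots, liver and muscle. Dhrs7 was also among the 8 genes nearest to Thrsp over the deviations of arrays within groups (r = 0.54, 96 points). Since Dhrs7 was picked by its values, these are descriptions with no test.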
